A study of Mus musculus with 36 samples.

Results

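The KT cultures are 3 mouse cell lines grown in culture, KT1044, KT1970 and KT1975, and they make up 3 of the 36 RNA-seq libraries of a series on mouse bladder cancer. They were taken by their titles, although their columns in the expression table spell the name KAT. They were compared with the 2 other cultures that express Krt5, the BBN963 and UPPL1541 lines. In the culture of MB49, a mouse bladder carcinoma line, Krt5 was listed at 0.964 units. By that rule the MB49 culture was left out of the groups compared and is given as a reference. It entered only an alternative fit over all 36 libraries, as a group of its own. The meaning of KT, the animals the lines came from and their growth conditions are not given in the sources used here.

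All 6 cultures carry the genotype label Ctrl and the treatment label Untreated. That label also stands on the UPPL1541 culture, whereas the UPPL primary tumours and the tumours grown from UPPL1541 are labelled with Upk3a-CreERT2, a tamoxifen-dependent Cre under the promoter of a urothelial gene, together with p53f/f, a floxed allele it deletes, and the luciferase reporter Rosa26LSL-Luc. The BBN primary tumours are labelled Ctrl and treated with N-butyl-N-(4-hydroxybutyl)nitrosamine, a bladder carcinogen. The remaining 30 libraries are 11 BBN and 9 UPPL primary tumours and 10 tumours grown from the BBN963, UPPL1541 and MB49 lines. Each culture is 1 library of 1 line, so the spread in every test below is the spread between lines, and anything that sets all KT lines apart from the others, such as a medium, cannot be told apart from the lines themselves.

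Urothelium, the lining of the bladder, is built from basal cells that carry keratins 5 and 14, intermediate cells, and luminal cells whose surface is covered by uroplakin plaques and which carry keratins 8, 18 and 20. Carcinomas and cell lines derived from this tissue keep parts of these programmes to differing degrees. Epithelial tumour cells can also secrete chemokines that recruit neutrophils, and can take up mesenchymal features, in which vimentin, fibrillar collagens and regulators such as Snai1 and Prrx1 are expressed.

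The deposited values are expression estimates that the authors scaled so that the 75th percentile of each culture lies near 1000 units. Between 11327628 and 15451593 reads per culture were recovered from these values, and 91.3% to 92.7% of the values above 0 were whole reads within 0.02 of a read. A gene at 0 could still have held up to 3 reads, which is at most 3.65 units in the BBN963 and UPPL1541 cultures and 3.33 units in the KT cultures, and this limit covers counting error only. Levels are not divided by gene length, so levels of different genes are not compared.

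Markers of basal epithelium were present in all 3 KT lines. Krt5, which the choice of cultures used, was 62081, 53969 and 47816 units in KT1044, KT1970 and KT1975, beside 106940 in BBN963 and 67387 in UPPL1541, and it is given without a test. Krt14, the partner of keratin 5, was 72440, 53713 and 48250 units in the KT lines, 75713 in BBN963 and 36994 in UPPL1541, so the groups overlapped. Trp63, the regulator that maintains basal epithelium, was 3998, 4212 and 3844 units against 3487 and 2569, and it was listed at 0 in MB49. Epcam, an epithelial adhesion molecule, was 9362, 5918 and 4081 units against 6960 and 16877. Cdh1, which encodes E-cadherin, was 31565, 9584 and 8495 units against 9955 and 33287. Markers of leukocytes summed to 208 to 558 units in the KT lines and 269 to 564 in the others, mostly from Cd68, Csf1r and Itgam, and endothelial markers to 15.5 to 145 and 53.2 to 108 units. Among the lineage-defining markers, Cd3g, Tyrobp, Fcer1g, Cldn5 and Emcn had no read in any of them, and Ptprc had reads in UPPL1541 alone at 3.73 units.

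Trp53 and Upk3a, which stand in the genotype labels, were also read. Trp53 was 1059, 1282 and 1316 units in the KT lines, 3017 in BBN963 and 50.4 in UPPL1541. Upk3a, a uroplakin, was 113, 7.70 and 1.78 units in the KT lines, 0 in BBN963 and 93.4 in UPPL1541. Neither gene passed the test between the groups, with adjusted p of 0.594 and 0.925 in limma.

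KT1970 and KT1975 were the most alike of the 5 cultures. Over the 12612 genes tested, the Pearson correlation of their log2 values was 0.947, and 12.1% of genes differed by at least 1 log2 unit. KT1044 correlated at 0.872 and 0.867 with these lines, with 29.1% of genes that far apart from each. Between a KT line and BBN963 or UPPL1541 the correlation was 0.730 to 0.799, and BBN963 and UPPL1541 correlated with each other at 0.842. These correlations are across genes, which are not independent replicates, and are given as a description.

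Of 12612 genes at 10 units or more in at least 2 of the 5 cultures, 56 were higher in the KT cultures (0.444% of genes tested) and 20 were lower (0.159%), at an adjusted p of 0.05 or less in limma on log2(value + 1). The median difference over all genes tested was 0.06 log2 units. In all 76 called genes every KT value lay at least 1 log2 unit beyond both other cultures. That separation alone was met by 587 genes above the other cultures (4.65%) and by 444 below them (3.52%), and groups that did not overlap were found in 20.2% of genes in the higher and 17.8% in the lower direction.

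The count of calls depends on the libraries used. It was 0 higher and 1 lower without KT1044, 0 and 0 without KT1970, and 0 and 1 without KT1975. Leaving out BBN963 or UPPL1541 leaves 1 culture in that group, so the spread comes from the KT lines alone. The calls of those fits are not counted here. The quasi-likelihood test of edgeR on the recovered reads called 0 genes, with 2313 genes at an unadjusted p under 0.05 and a smallest adjusted p of 0.0507, while limma had 2337 genes at an unadjusted p under 0.05. For a single gene, an exact permutation test of 3 against 2 cultures cannot go below a two-sided p of 0.2.

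**Figure D1:**
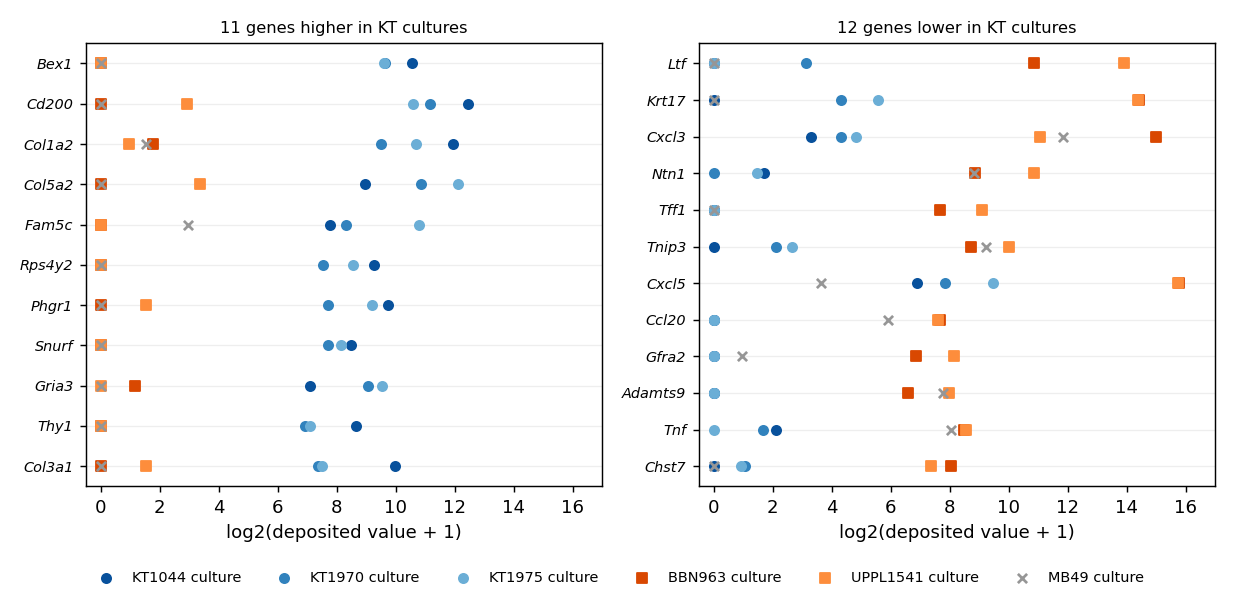
Expression of 11 higher and 12 lower genes among the called genes with the largest log2 fold change in each direction, at a mean of 100 units or more in the higher group; each point is 1 culture on a log2(deposited value + 1) axis, circles are KT lines, squares the BBN963 and UPPL1541 lines and crosses MB49. The circles stand clear of the squares by at least 1 log2 unit in every row.

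Of the genes of basal urothelium, 1 keratin was lower in the KT lines. Krt17, a keratin of stressed and basal-like epithelium, was 0, 18.7 and 46.2 units in KT1044, KT1970 and KT1975, against 21691 in BBN963 and 21003 in UPPL1541. Krt17 was lower in the KT lines with a log2 fold change of -11.09 (SE 1.501, adjusted p = 0.0416), a 986-fold difference in mean level. Among 23 basal urothelial genes tested besides Krt5, Krt17 was the 1 lower gene, no gene was higher, and the median log2 fold change was 0.11, beside 0.06 over all genes tested. Krt15, a keratin of basal progenitor cells, was 3523, 3630 and 2752 units against 167 and 740, and did not pass (adjusted p = 0.0688).

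Of 25 luminal genes tested, 1 was higher, none was lower, and the median log2 fold change was 1.20. In 10 of them every KT value lay above both other cultures, beside 20.2% of all genes tested. The median was 0.72 without KT1044, 0.48 without BBN963 and 1.84 without UPPL1541, and Upk2, Fgfr3 and Foxa1 had log2 fold changes of -2.01, -2.31 and -1.06 without passing. Upk1b, a uroplakin of the luminal plaque, was 19542, 5713 and 2132 units in KT1044, KT1970 and KT1975, against 46.2 and 54.2. It was higher by 6.92 log2 units (SE 0.84, adjusted p = 0.0346), and KT1044 had the highest and KT1975 the lowest KT value. Krt8, a keratin of luminal epithelium, was 19614, 9574 and 11134 units against 3580 and 3768 (adjusted p = 0.106), and its partner Krt18 was 27052, 10172 and 10142 units against 4462 and 5444 (adjusted p = 0.191). Krt19 was 46210, 14209 and 10731 units against 2996 and 23306, so UPPL1541 lay inside the KT range. Upk3b and Fabp4 were also above both others by at least 1 log2 unit in every KT line without passing, at 29.3 to 144 units against 0 and 0, and at 53.9 to 209 units against 0 and 3.73. Upk1a, another uroplakin, was 3321 units in KT1044 against 451 and 138 in the other KT lines, and Psca, a surface antigen, was 15306 units against 1881 and 1226.

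Genes of the cornified envelope and of cell adhesion showed no called member. None of 24 squamous and cornified envelope genes, 14 hemidesmosome and laminin genes, 10 desmosome genes or 22 tight and adherens junction genes passed, and their medians lay between -0.26 and 0.41 log2 units, or between -0.71 and 0.84 when 1 culture was left out. Ivl, the envelope precursor involucrin, was 12783, 1249 and 2036 units against 207 and 210, with every KT value above both others and an adjusted p of 0.113.

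Chemokine and cytokine genes were the list with the lowest median. The list also holds some genes that encode neither, such as Nfkbia, Tnfaip3 and Lcn2. Of 31 tested, 5 were lower in the KT cultures, none was higher, and the median log2 fold change was -3.27. Genes such as Ccl20 entered the test through BBN963 and UPPL1541 alone, so this median depends in part on the filter. In 17 every KT value lay at least 1 log2 unit below both others, beside 3.52% of all genes tested. Cxcl5, a ligand that recruits neutrophils, was 117, 229 and 706 units in the KT lines against 56181 in BBN963 and 53925 in UPPL1541, with a log2 fold change of -7.69 (SE 0.70, adjusted p = 0.0227). Cxcl3, a ligand of the same receptor, was 8.88, 18.7 and 27.6 units against 32635 and 2106, with a log2 fold change of -8.87 (SE 1.13, adjusted p = 0.0374). Both genes were low in all 3 KT lines and high in both others, and MB49 had 11.6 units of Cxcl5 and 3625 of Cxcl3.

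Cytokines with a role in myeloid cells followed. Csf3, which encodes the growth factor G-CSF that drives neutrophil production, was 9.99, 5.50 and 11.6 units in the KT lines against 1363 and 631, a 111-fold lower mean (adjusted p = 0.0271). Tnf, the inflammatory cytokine, was 3.33, 2.20 and 0 units against 353 and 377 (198-fold lower, adjusted p = 0.0416). Ccl20, a ligand for CCR6, had no read in any KT line against 200.7 and 194 units, which is at least 59.3-fold lower (adjusted p = 0.0350). Csf2, Il1a and Cxcl16 did not pass, with adjusted p of 0.0648, 0.0536 and 0.0579, although each KT value lay below both others: Il1a, which encodes interleukin 1 alpha, was 349, 481 and 779 units against 2798 and 4918.

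The list was not uniform. Cxcl1, a close relative of Cxcl3, was 312, 248 and 502 units in the KT lines, 448 in BBN963 and 3.73 in UPPL1541. Cxcl2 was 3.33, 120 and 288 units against 8450 and 2308 (adjusted p = 0.134), so KT1044 was the lowest and the groups did not overlap. Ccl2, a monocyte attractant, was 326, 23.1 and 40.0 units against 10740 and 179, and overlapped. These ligand genes are similar in sequence, and how the estimates divided reads that fit several of them was not tested. Tnip3, a gene induced by inflammatory signalling and on none of the lists, was 0, 3.30 and 5.33 units against 423 and 1022 (adjusted p = 0.0416). Ltf, which encodes the antimicrobial iron-binding protein lactoferrin, was 0, 7.70 and 0 units against 1828 and 15414 (adjusted p = 0.0326).

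NF-κB is the transcription factor best known for driving these chemokines, and its consensus was searched on both strands of RefSeq promoter windows (GRCm38.p6, 250 bases before to 50 after the start). It was found in 8.46% of the 32851 windows and, by gene, in 12.6% of the 9997 tested genes that have a window. Of the 20 lower genes 13 had a window and 5 of these held a match, against 3 of 42 among the higher genes. Of the 31 tested genes of the chemokine and cytokine list 22 had a window and 9 held a match, Cxcl1 among them. Nfkbia and Tnfaip3, which are neither chemokines nor cytokines, were also among these 9. Of the 5 lower chemokine and cytokine genes, Cxcl3, Ccl20 and Tnf had a window, and Tnf held no match. The 120 bases before the start are shown for 2 of the called chemokines, for Tnip3, and for Cxcl2 and Cxcl1, which did not pass. These are the genes with values given above that hold a match. The consensus was GGGRNNYYCC, where R is A or G, Y is C or T and N is any base. Matched bases are in capitals, and the match in Ccl20 fits only when read on the other strand. The genes are all on the plus strand: Cxcl3 at chr5:90785981-90786100, Ccl20 at chr1:83116646-83116765, Tnip3 at chr6:65590278-65590397, Cxcl2 at chr5:90903779-90903898 and Cxcl1 at chr5:90891125-90891244.
Cxcl3: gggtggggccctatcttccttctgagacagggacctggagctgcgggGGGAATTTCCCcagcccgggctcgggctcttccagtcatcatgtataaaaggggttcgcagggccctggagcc
Ccl20: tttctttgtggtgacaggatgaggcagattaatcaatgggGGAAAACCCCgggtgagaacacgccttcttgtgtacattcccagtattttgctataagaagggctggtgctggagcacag
Tnip3: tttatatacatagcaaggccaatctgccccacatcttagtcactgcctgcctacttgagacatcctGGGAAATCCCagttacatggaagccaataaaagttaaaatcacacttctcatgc
Cxcl2: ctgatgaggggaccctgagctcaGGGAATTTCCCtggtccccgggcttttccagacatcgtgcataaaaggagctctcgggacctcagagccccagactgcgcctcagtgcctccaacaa
Cxcl1: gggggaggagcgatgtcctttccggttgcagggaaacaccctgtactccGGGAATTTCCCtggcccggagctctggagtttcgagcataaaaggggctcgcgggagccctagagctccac
A match is a description of the letters and not of binding, and the windows were read from another build than the mm9 build of the expression values. The first match began 73 bases before the start in Cxcl3, 80 in Ccl20, 54 in Tnip3, 97 in Cxcl2 and 71 in Cxcl1. The match in Cxcl1 stands in a gene whose values overlapped between the groups.

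**Figure D2:**
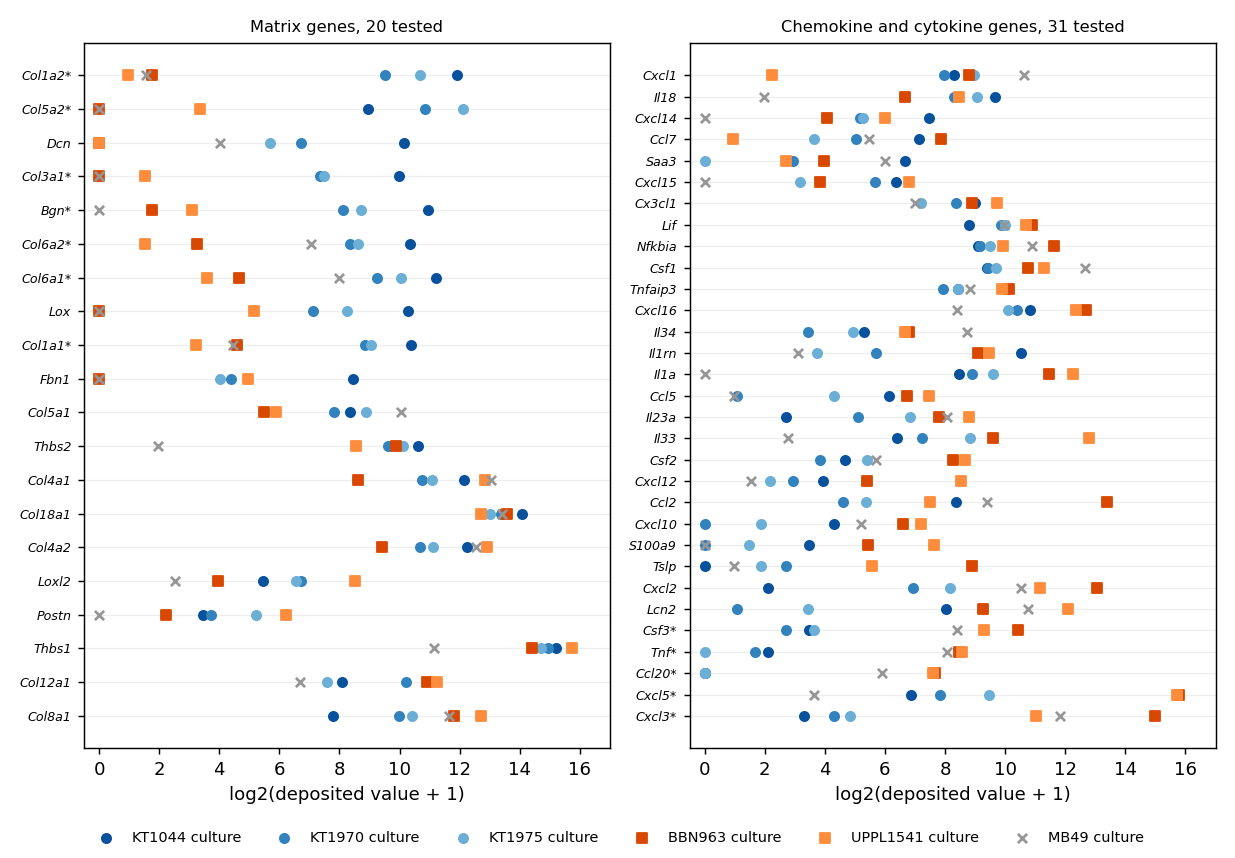
Every tested gene of the matrix list (left) and of the chemokine and cytokine list (right), ordered by log2 fold change. Each point is 1 culture on a log2(deposited value + 1) axis. Circles are KT lines, squares the BBN963 and UPPL1541 lines and crosses MB49. An asterisk marks genes that passed. The 7 called matrix genes have their circles to the right and the 5 called chemokine and cytokine genes have them to the left.

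Some genes of the extracellular matrix were higher. Of 20 tested, 7 passed upward and none downward, and the median log2 fold change was 2.90. Genes such as Col1a2 and Dcn entered the test through the KT lines alone, so this median depends in part on the filter. In 10 every KT value lay at least 1 log2 unit above both others, beside 4.65% of all genes tested. The summed level of the list overlapped between the groups, at 51624 to 82485 units in the KT lines, 41589 in BBN963 and 86337 in UPPL1541. Col1a2, a chain of type I collagen, was 3892, 727 and 1631 units in KT1044, KT1970 and KT1975 against 2.43 and 0.934, a difference of 9.34 log2 units (SE 0.79, adjusted p = 0.0227). Col1a1, the partner chain, was 1345, 464 and 530 units against 23.1 and 8.403 (49.5-fold higher, adjusted p = 0.0367). Both chains were highest in KT1044. Col5a2 showed the opposite order, with 497, 1861 and 4418 units against 0 and 9.34 (adjusted p = 0.0446).

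Col6a1 and Col6a2, which encode chains of the pericellular type VI collagen, were 75.4-fold and 131-fold higher in mean level, with adjusted p of 0.0322 and 0.0383. Col3a1 was 1014, 162 and 180 units against 0 and 1.87 (adjusted p = 0.0449), and Bgn, which encodes the proteoglycan biglycan, was 1986, 276 and 420 units against 2.43 and 7.47 (adjusted p = 0.0449). Dcn, which encodes decorin, was 1128, 106 and 50.7 units with no read in either other culture, and did not pass (adjusted p = 0.0686). Col8a1 ran the other way without passing, at 221, 1001 and 1356 units against 3574 and 6741. Vcan, Nid1 and Pcolce, matrix genes outside the list, were also called higher, Vcan with 1993, 1307 and 1276 units against 29.2 and 28.0 (adjusted p = 0.0172).

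Fibroblast markers were read beside these genes. Of the 10 markers 8 were tested and 4 were higher, beside 0.444% of all genes tested. These were Col1a1, Col1a2, Col3a1 and Thy1, of which the 3 collagens are also on the matrix list. In 6 every KT value lay at least 1 log2 unit above both others, beside 4.65% of all genes tested. The median log2 fold change was 6.52, or 5.72 with genes at 0 in a group set to their bound. Col1a2, Col3a1 and Thy1 reached the 10 units needed for testing in the KT lines alone. This median is therefore fixed in part by the filter and is given as a description. The summed level of the 10 markers was 1659 to 8302 units in the KT lines and 98.5 to 103 in the other cultures. Thy1, a surface protein of fibroblasts, was 405, 121 and 136 units with no read in BBN963 or UPPL1541, at least 60.49-fold higher. Pdgfra, the receptor that defines many fibroblasts, was 465, 42.9 and 117 units against 66.9 and 15.9, so the groups overlapped. Lum was 22.2, 5.50 and 0.889 units and Fap was 1.11, 8.80 and 0.889 units in the KT lines, and Pdgfrb was 9.90 to 20.0 units. Smooth and skeletal muscle markers had a summed level of 490 to 3650 units in the KT lines and 52.3 to 176 in the others. Of these 11 markers 4 were tested and none passed. In 1 every KT value lay at least 1 log2 unit above both others, beside the same 4.65%. Summed endothelial and leukocyte markers overlapped between the groups. The part of other cell types in the matrix values was not tested. The median of the matrix list was 2.02 to 3.85 log2 units when 1 culture was left out, and that of the chemokine and cytokine list -3.50 to -2.46.

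Mesenchymal genes were called in part. Of 19 mesenchymal transition genes tested 3 were higher, none was lower, and the median was 0.89. In 5 every KT value lay at least 1 log2 unit above both others, beside 4.65% of all genes tested. Vim, the intermediate filament vimentin, was 3766, 7151 and 9398 units against 417 and 139, 24.3-fold higher (adjusted p = 0.0346), and 19076 in MB49. Prrx1, a mesenchymal transcription factor, was 1353, 925 and 1566 units against 4.87 and 21.5 (adjusted p = 0.0227), and it was listed at 0 in MB49. Snai1, a repressor of E-cadherin, was 94.4, 125 and 286 units with no read in the others, at least 46.2-fold higher (adjusted p = 0.0343). Cdh1, a target that Snai1 is known to repress, overlapped between the groups as given above.

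Other called genes encode surface and signalling proteins. Cd200, an inhibitory ligand for myeloid cells, was 5516, 2266 and 1524 units against 0 and 6.54 (adjusted p = 0.0227). Cd55, which protects cells from complement, was 2343, 2468 and 2873 units against 137 and 63.5, 25.5-fold higher (adjusted p = 0.0227). Serpinb9, an inhibitor of granzyme B, was 4890, 4727 and 5483 units against 776 and 828 (6.27-fold, adjusted p = 0.0247), and its paralogue Serpinb9b was 2698, 7508 and 8461 units against 23.1 and 72.8 (adjusted p = 0.0227). Serpinb9b was lowest in KT1044, and reads shared with Serpinb9 were not separated here. Tgfbr3, a co-receptor for TGF-beta, was 655, 956 and 720 units against 23.1 and 2.80 (adjusted p = 0.0395), and Ltbp2, which encodes a latent TGF-beta binding protein, was 73.1, 22.7 and 39.1 units against 705 and 840 (adjusted p = 0.0496). They were the called members of 31 tested genes of TGF-beta, BMP and activin signalling, 1 in each direction. Over all genes tested 0.444% were called higher and 0.159% lower. The list median was -0.27. In 2 genes every KT value lay at least 1 log2 unit above both others and in 5 that far below, beside 4.65% and 3.52% of all genes tested.

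Fkbp5 and Tsc22d3, textbook targets of the glucocorticoid receptor, were both called. Fkbp5 was 2906, 1686 and 1687 units against 220 and 255 (8.81-fold, adjusted p = 0.0322), and Tsc22d3, also known as GILZ, was 1600, 1177 and 2046 units against 275 and 337 (5.25-fold, adjusted p = 0.0499). Per1 and Sgk1, which respond to the same receptor, were looked up after these values were seen, and neither passed. Both had every KT value above both others, as did 20.2% of all genes tested. Per1 was 799 to 1715 units against 344 and 422 (adjusted p = 0.116 in limma). Sgk1 was 3126 to 8499 units against 1861 and 1715 (adjusted p = 0.140).

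Tfrc, the transferrin receptor through which cells take up iron, was 1165, 1484 and 666 units in the KT lines against 16640 and 18318, 15.8-fold lower (SE 0.40 on a log2 fold change of -4.06, adjusted p = 0.0227), and 14041 in MB49. Igfbp3, which binds insulin-like growth factors, was 8970, 4365 and 8251 units against 115187 and 58777 (12.1-fold lower, adjusted p = 0.0499). Nfib, a transcription factor, was 502, 700 and 474 units against 2292 and 3112 (4.84-fold lower, adjusted p = 0.0452). The remaining genes among the 12 with the largest fall were Ntn1, Tff1, Gfra2, Adamts9 and Chst7, of which Tff1, Gfra2 and Adamts9 had no read in any KT line. Tff1, a secreted peptide of mucosal surfaces, was 204 and 538 units in BBN963 and UPPL1541, at least 111-fold lower in the KT lines (adjusted p = 0.0322). Ntn1, the guidance cue netrin 1, was 2.22, 0 and 1.78 units against 465 and 1847 (adjusted p = 0.0322).

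**Figure D3:**
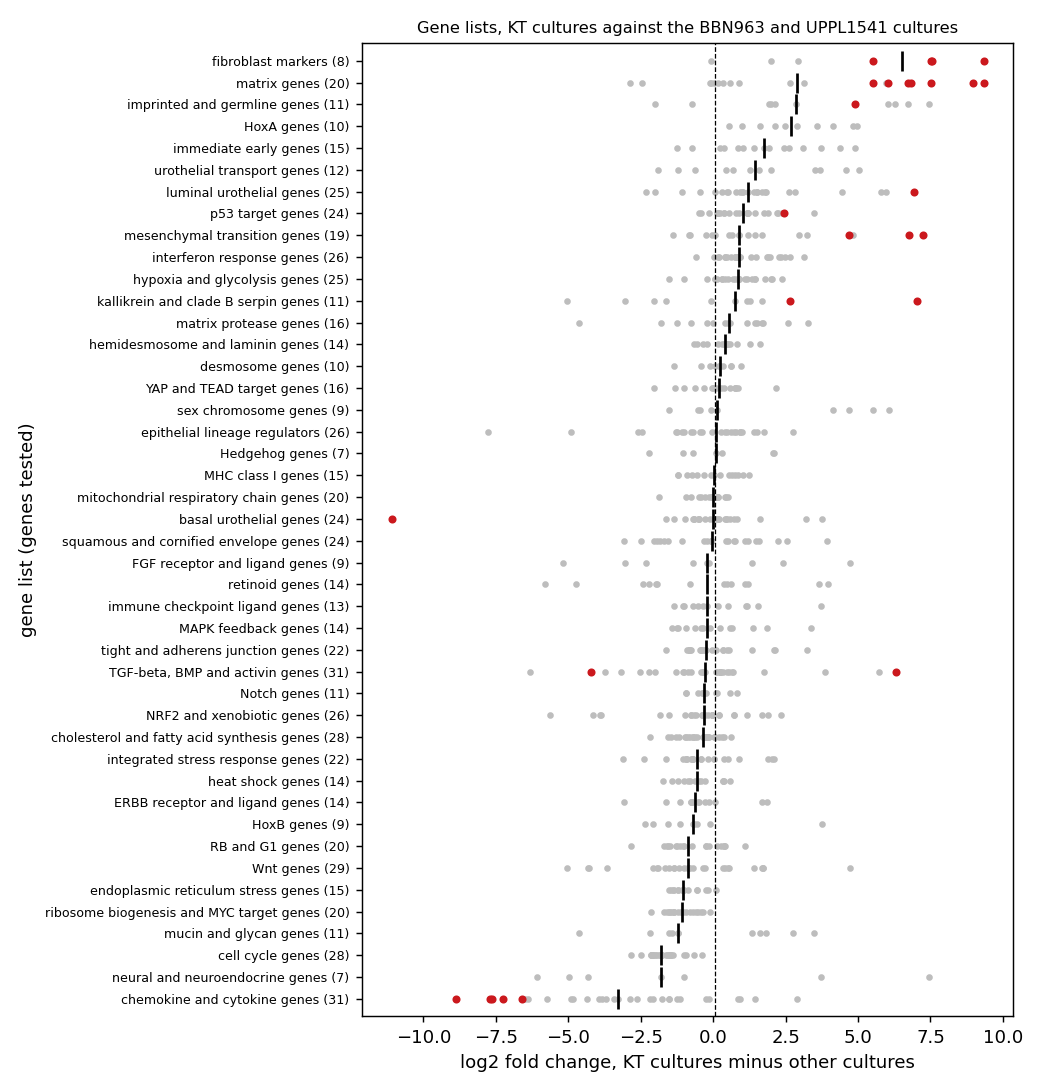
Log2 fold change of KT cultures minus the other cultures for every tested member of each gene list with 5 or more tested genes; grey points are genes, red points genes that passed, black bars list medians, and the dashed line is the median of all 12612 genes. Fibroblast and matrix genes stand at the top with medians of 6.52 and 2.90, and chemokine and cytokine genes at the bottom with -3.27.

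No proliferation gene passed. Of 28 cell cycle genes tested none was higher or lower by the adjusted p. The median log2 fold change was -1.78, or -1.16 without KT1044. In 25 every KT value lay below both others, in 12 by at least 1 log2 unit. Over all genes tested the shares below both others were 17.8% and, by at least 1 log2 unit, 3.52%. Mki67, which encodes the proliferation antigen Ki-67, was 1118, 2724 and 2442 units in KT1044, KT1970 and KT1975 against 12150 and 15649 (log2 fold change -2.82, SE 0.45, adjusted p = 0.0582). Ccnb1, which encodes cyclin B1, was 129, 773 and 790 units against 1925 and 1175. KT1044 was the lowest of the 5 cultures in all 28 genes. Genes of ribosome biogenesis and MYC targets also had no called member, with 12 of 20 below both others and a median of -1.09, or -0.56 without BBN963 and -1.70 without UPPL1541.

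**Figure D4:**
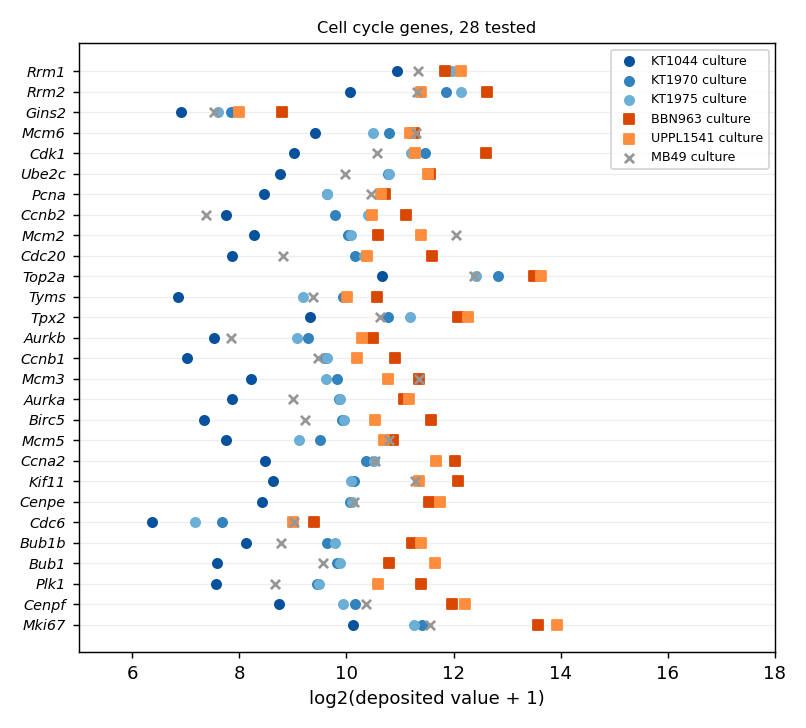
All 28 tested cell cycle genes ordered by log2 fold change, with 1 point per culture on a log2(deposited value + 1) axis; circles are KT lines, squares the BBN963 and UPPL1541 lines and crosses MB49. KT1044 (darkest circle) is the leftmost KT line in every row, and the squares lie to the right of the circles in 25 rows.

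Immediate early genes, which are switched on within minutes of a stimulus, had no called member among 15 tested. 6 had every KT value at least 1 log2 unit above both others, beside 4.65% of all genes tested, and the median was 1.77. Fos was 446, 2723 and 2837 units against 68.1 and 73.8 (adjusted p = 0.0688), Egr1 was 396, 2179 and 4549 units against 254 and 54.2 (adjusted p = 0.150), and Dusp1, a phosphatase of the same response, was 1036, 2138 and 2675 units against 101 and 429 (adjusted p = 0.101). Of these 3 genes KT1044 was the lowest KT line in each. Fosb and Junb overlapped.

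Hypoxia, interferon and redox lists had no called member either. Their counts stand beside 4.65% of all genes tested at least 1 log2 unit above both others and 3.52% that far below. Of 25 hypoxia and glycolysis genes, 4 lay at least 1 log2 unit above both others, Ndrg1, Bnip3, Adm and Mxi1, and the median was 0.87. Bnip3, a mitophagy receptor induced by low oxygen, was 1513, 2630 and 2895 units against 541 and 341 (adjusted p = 0.0618). Of 26 interferon response genes, 4 did so, Irf7, Oas1a, Mx2 and Gbp2, with a median of 0.88, or 0.45 without BBN963 and 1.504 without UPPL1541. Irf7, which amplifies type I interferon, was 685, 321 and 659 units against 41.4 and 85.0 (adjusted p = 0.0649). Of 26 NRF2 and xenobiotic genes, 5 lay at least 1 log2 unit below both others and 1 that far above, with a median of -0.33. Slc7a11, the cystine transporter, was 72.2, 328 and 129 units against 1474 and 3147 (adjusted p = 0.0645).

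Among 24 tested p53 targets 1 was higher, with a median log2 fold change of 1.02, which was 0.17 without UPPL1541. In 12 every KT value lay above both others, beside 20.2% of all genes tested. Trp53 itself was 50.4 units in UPPL1541, as given above, and the part of this in the comparison was not tested. Trp53inp1, a stress gene that p53 induces, was 3581, 3165 and 2413 units against 597 and 500 (adjusted p = 0.0346). Cdkn1a, which encodes the cell cycle inhibitor p21, was 5406, 3315 and 3454 units in the KT lines, 3420 in BBN963 and 862 in UPPL1541, so BBN963 was inside the KT range.

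Mdm2, which encodes the ubiquitin ligase that degrades p53, was 4589 units in KT1044, 25253 in KT1970 and 38275 in KT1975, against 2293 and 961.7, and did not pass (adjusted p = 0.132). The primary tumours spanned 798 to 1251 units in the BBN group and 415 to 1139 in the UPPL group, so KT1970 and KT1975 were above all 20 of them. The MB49 culture was also above them at 15328 units, with Cct2 at 7616 and Yeats4 at 403 units. The neighbours of Mdm2 on chromosome 10, in the gene order of the reference annotation, were read for this reason, after the values of Mdm2 were seen. Cct2, a subunit of the CCT chaperonin, was 48580 and 65158 units in KT1970 and KT1975 but 9545 in KT1044, 12415 in BBN963 and 6409 in UPPL1541. Yeats4, a chromatin reader, was 3119 and 3848 units against 452 to 830 in the other 3 cultures, Nup107, a nuclear pore subunit, was 4739 and 5950 against 706 to 1386, and Frs2, an adaptor of FGF receptors, was 4539 and 5997 against 698 to 1945. The interval was not uniform. Cpsf6, between Yeats4 and Mdm2, was 2311 and 2437 units against 1802 to 1960. Cpm, the tested gene between Cpsf6 and Mdm2, was 111 and 89.8 units, inside the 57.2 to 419 of the other 3 cultures. The flanking Rab3ip was 590 and 520 units against 459 to 548.

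High neighbours in KT1970 and KT1975 were also read at a pair of places on chromosome 3. Commd2 was 4210 and 5117 units in KT1970 and KT1975 against 424 to 671 in the other 3 cultures, and its neighbour Rnf13, a ubiquitin ligase, was 9418 and 10000.1 units against 1460 to 2170. Elsewhere on chromosome 3, Hs2st1, a heparan sulfate sulfotransferase, was 9036 and 8883 units against 1603 to 2435, and its neighbour Sh3glb1 was 21723 and 30874 against 1833 to 5458. Between these stands Selenof, whose symbol the expression table replaces by the number 41167, with 35550 and 35647 units against 5659 to 7266. Over 12575 genes placed in the reference order, 280 (2.23%) had both KT1970 and KT1975 at least 1 log2 unit above the other 3 cultures. Of the overlapping runs of 5 neighbours, 17 held 3 or more such genes, on chromosomes 2, 3, 6, 7, 10, 15 and X. The place of Commd2 and Rnf13 was not among them, since their neighbours Wwtr1 and Pfn2 lay 0.98 and 0.92 log2 units above. The pair of lines, the threshold and the 3 places were chosen after the values were seen, no test was made, and DNA copy number was not measured.

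**Figure D5:**
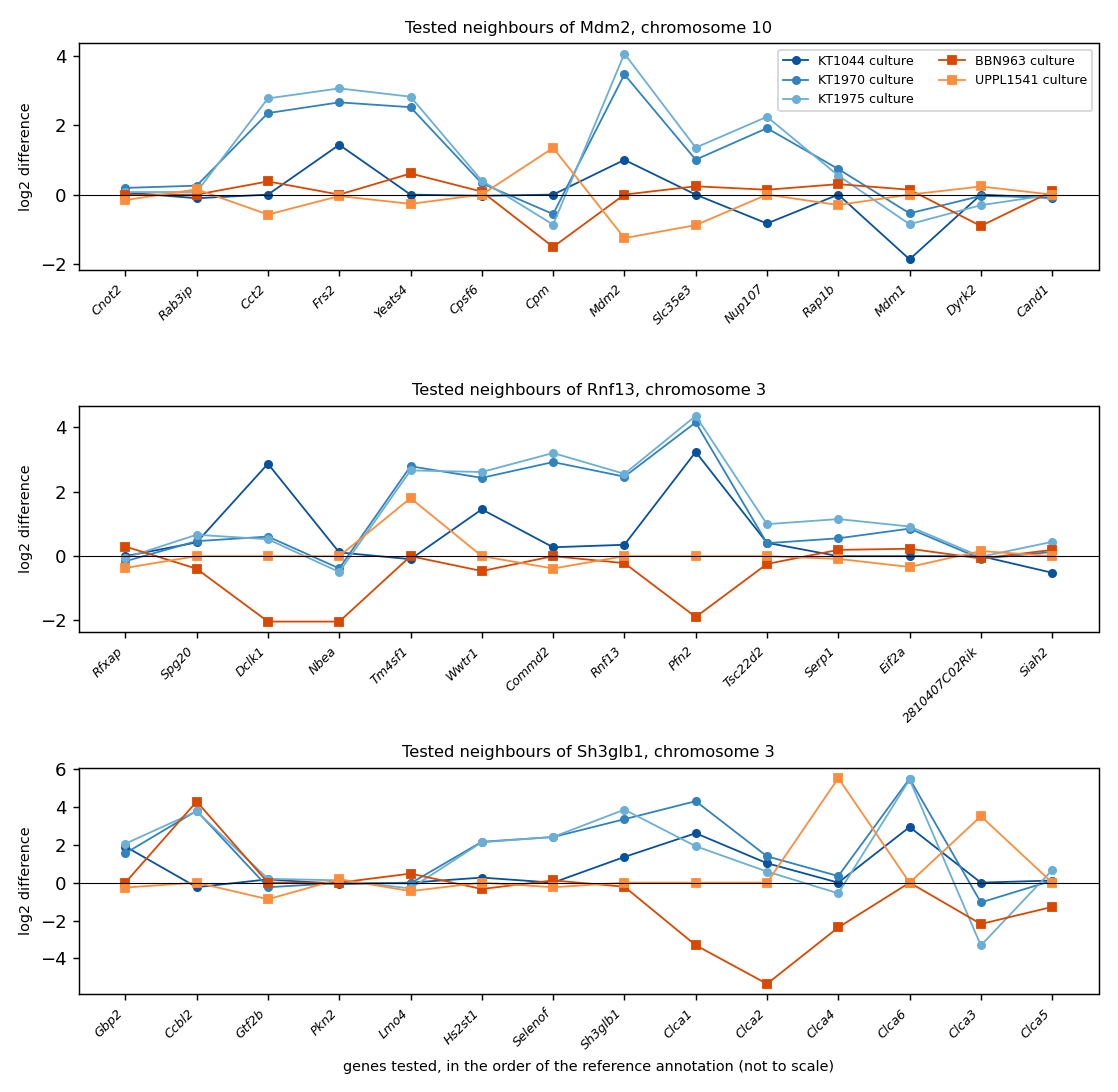
Tested genes around Mdm2, Rnf13 and Sh3glb1 in the gene order of the reference annotation (not to scale); each line is 1 culture, and the y axis is log2(deposited value + 1) minus the median of KT1044, BBN963 and UPPL1541. KT1970 and KT1975 run together and rise above the other cultures at Cct2 to Yeats4, Mdm2 and Nup107, at Commd2 and Rnf13, and at Hs2st1 to Sh3glb1.

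Transcripts of the sex chromosomes differed between KT1970 and KT1975. Xist, the RNA that silences an X chromosome, was 12522 units in KT1970 and 0 in KT1975, and Ddx3y, a Y-linked helicase, was 0 and 707. KT1044 carried Y-linked transcripts with Ddx3y at 1176 units and Xist at 5.55. BBN963 had 15290 units of Xist and no read of Ddx3y, and UPPL1541 had 0 and 0.934. No gene of the sex chromosome list passed.

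Imprinted and germline genes included several that were nearly silent in the other cultures. Of 11 tested, 1 was higher, and the median was 2.87, or 2.44 to 4.69 when 1 culture was left out. In 5 every KT value lay at least 1 log2 unit above both others, beside 4.65% of all genes tested. Peg3, a paternally expressed zinc finger gene, was 1083, 1023 and 521 units against 13.1 and 54.3 (adjusted p = 0.0449). H19, a maternally expressed RNA, was 54.4, 216 and 803 units against 0 and 6.54 (adjusted p = 0.0983). Snurf, a paternally expressed gene outside the list, was 356, 207 and 279 units with no read in the others, at least 76.9-fold higher (adjusted p = 0.0227). Bex1, an X-linked adaptor gene, had the largest log2 fold change, 9.93 (SE 0.63, adjusted p = 0.0172), from 1498, 792 and 776 units against no read, at least 280-fold higher.

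The 12 genes with the largest rise also included Fam5c, Rps4y2, Phgr1 and Gria3. Gria3, a subunit of AMPA glutamate receptors, was 135, 535 and 745 units against 1.22 and 0 (adjusted p = 0.0343). Fam5c was 217, 320 and 1748 units (at least 209-fold higher, adjusted p = 0.0322). Rps4y2, 617, 183 and 373 units with no read in the others (adjusted p = 0.0227), is related to ribosomal protein S4 genes, and the share of its reads that belongs to relatives was not tested.

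HoxA genes, which record position along the body axis, had no called member. Hoxa9, Hoxa10, Hoxa11 and Hoxa13 had no read in BBN963. Hoxa10 was 1421, 967 and 656 units in the KT lines and 955 in UPPL1541, and Hoxa13, a gene of the urogenital region, was 130, 38.5 and 52.4 units in the KT lines and 28.0 in UPPL1541. None of 10 tested HoxA genes passed, and their median log2 fold change was 2.70, or 0.35 without BBN963 and 4.47 without UPPL1541.

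Within the KT group, KT1044 stood furthest apart. It had 425 genes at least 1 log2 unit above all of the other 4 cultures and 760 as far below them, while KT1970 had 108 and 125 and KT1975 had 137 and 181. For comparison, BBN963 had 532 and 912 and UPPL1541 had 376 and 623. With 1 library per line these counts have no replicate check.

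In KT1044 the largest gaps upward included Gsdmc2 and Gsdmc3, of the gasdermin family of pore-forming proteins, Ptprn2, Abca1 and Scgb1a1. Gsdmc2 was 5861 units in KT1044, 147 in KT1970, 19.6 in KT1975, 0 in BBN963 and 20.54 in UPPL1541. Abca1, a cholesterol exporter, was 735 units in KT1044 and 9.34 to 27.5 in the other 4. Aldh3a1, an aldehyde dehydrogenase, had no read in KT1044 and was 148 to 2948 units in the other 4. Rpl35a and Ldhb were 6.66 and 4.44 units in KT1044 against at least 254 and 172 in the other 4 cultures compared.

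KT1970 was set apart by Slc7a3, Cdo1, Xlr3a, Pcdhga11, Cd34 and Mdk upward, and by Prl2c2, Ppbp and H2-T9 downward. Slc7a3, a transporter of cationic amino acids, was 449 units in KT1970 and at most 17.8 in the other 4. Ppbp, a platelet chemokine, was 721 units in KT1970 against 4819 and 10709.5 in the other KT lines. KT1975 was set apart by Lce1f, Gpr97, Xlr, Aim2, AI662270 and Ifitm1 upward, and by Edn1, Tmprss4 and Bace2 downward. Aim2, a sensor of cytosolic DNA, was 937 units in KT1975, 64.4 and 108 in the other KT lines, and 8.52 and 1.87 in BBN963 and UPPL1541. Xlr and Xlr3a belong to families of similar X-linked copies, so their values are uncertain as single genes.

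The primary tumours of the series give a scale for these differences, with the limit that a tumour holds many cell types and that fewer cells of a type and less RNA per cell cannot be told apart in bulk tissue. Krt17, nearly silent in the KT lines, had a lowest value of 7235, a median of 15052 and a highest of 26949 units in the 11 BBN tumours, and 4.00, 1308 and 10628 units in the 9 UPPL tumours. Upk1b had a median of 1503 units in BBN and 13216 in UPPL tumours, and KT1044 lay at 19542. Bex1 had a median of 0 in both groups and a highest value of 471 in BBN and 57.4 in UPPL tumours, below all 3 KT lines.

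Among the called chemokines, Cxcl5 and Ccl20 had values in the BBN963 and UPPL1541 cultures above those of every primary tumour, and Cxcl3 did not. Cxcl3 reached 7275 units in a BBN primary tumour, above the 2106 of UPPL1541, with medians of 152 in BBN and 157 in UPPL tumours. Cxcl5 was 53925 or more in both, while its highest value was 6085 units in BBN and 1548 in UPPL tumours, with medians of 402 and 462, which lie between the 117 and 706 units of KT1044 and KT1975. Ccl20 had medians of 3.14 and 5.99 units and a highest value of 51.9 in these tumours, against 200.7 and 194 in the 2 cultures. Tnf had medians of 31.1 and 18.1 units. Tfrc had medians of 1810 and 2436 units and a highest value of 8377, between the 1484 of KT1970 and the 16640 of BBN963. The tumours grown from the UPPL1541 line had a median of 2682 units of Cxcl5 and 2607 of Tfrc, against 53925 and 18318 in the culture of that line. No test was made between tumours and cultures.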

How the data were processed

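Per the labels' protocols, an RNeasy kit gave the RNA and a TruSeq Stranded mRNA kit the libraries. The submitters' processing notes name RSEM, Picard 1.64, SAMtools and the mm9 build; their order and other settings are not given in the sources used here. The deposited signal values are the authors' RSEM estimates per gene, and the values themselves show that they were scaled to a 75th percentile of 1000. All 21705 rows name a gene and all 36 columns were mapped to samples. Gene IDs matched the reference table for 21562 rows.

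The deposited values were taken as log2(value + 1). Genes at 10 units or more in at least 2 of the 5 cultures were tested with limma (eBayes with a trend, 3 residual and 3.77 prior degrees of freedom) and Benjamini-Hochberg adjustment over all 12612 genes. Fold changes of low genes are understated on this scale. A gene with no read in 1 group could pass the filter through the other group alone, as Thy1 and Ccl20 did. List medians therefore depend in part on the filter. A fold against a group with no read is a bound, taken as the mean of the other group over 3 reads in the library of that group where a read is worth most. Reads were recovered from each culture's smallest step for the edgeR alternative. The fit functions were tested on simulated data. limma 3.58.1, edgeR 4.0.16, R 4.3.3, Python 3.11.15, pandas 2.3.3, numpy 2.4.6 and scipy 1.17.1 were used.

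The named genes are the label checks and, in each direction, the 12 called genes with the largest log2 fold change, no overlap and a mean of 100 units or more, without predicted symbols; for each list its first genes and those that passed or were at least 1 log2 unit apart, as needed; and for each KT line the 6 genes with the largest gap upward and 3 downward. Of 884 list genes asked, 876 were found in 50 lists. The cultures compared and the lists were chosen with earlier results of these data known. Other called genes, the neighbours of Mdm2, and Per1 and Sgk1 were chosen after their values were seen. A few genes that the rule names are not reported here. Alternatives were other pseudocounts, filters, scalings, variance models, weights, a fit over all libraries, edgeR, and leaving out each culture.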

Additional observations from a re-analysis of the deposited data

Results flagged for a closer look

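Of the genes with the largest changes, 23 were also checked for a tumour apart from the other 8 of the 9 UPPL primary tumours, where chance alone marks about 1 group in 20. In 5 of them 1 tumour stood apart on the log2 scale. Genes that vary together are flagged together, so these 5 are not separate observations to be set against that rate. Tumour UPPL1694 was the lowest for Col1a2 at 7.99 units, Col3a1 at 15.98, Col5a2 at 25.0 and Thy1 at 15.0. Tumour UPPL1595 was the lowest for Cd200 with 0 units. Of the comparisons between the cultures, only the alternative fit over all 36 libraries uses these tumours.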

How the results depend on the processing

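All 76 called genes kept their direction under 14 alternatives, and the 74 still tested under the stricter filter kept it there, but the calls themselves were not kept. The 56 higher and 20 lower genes became 25 and 7 with a stricter filter of 100 units, 101 and 66 without a variance trend, 481 and 556 in a fit over all 36 libraries, and 0 and 0 in edgeR on recovered reads. A pseudocount of 10 gave 79 and 52. Leaving out 1 culture gave 0 to 45 higher and 0 to 3 lower genes, and the most were left without UPPL1541. The cause of these differences was not tested, beyond the fewer genes tested under the stricter filter and the added libraries in the fit over all 36. The stricter filter left 363 genes above and 277 below both other cultures by 1 log2 unit, in place of 587 and 444. Quantile normalization, median-of-ratios scaling, robust eBayes, array weights and no filter kept both counts of calls within 1.5 times. Among the label checks, none of which passed, the sign depended on the setting for Krt14 (main 0.11, array weights -0.012, leaving out 1 culture -0.40 to 0.63), Krt19 (1.20, leaving out 1 culture -0.28 to 2.68), Cdh1 (-0.41, leaving out 1 culture -1.28 to 0.46), Trp53 (1.62, edgeR -0.31, leaving out 1 culture -1.31 to 4.56) and Upk3a (0.53, pseudocount of 10 -0.12, quantile normalization -0.29, array weights -0.59, edgeR -0.24, leaving out 1 culture -2.75 to 3.81). No paired analysis was possible because the cultures compared share no replicate number. Genes near 0 are limited by depth, since 3 reads are worth up to 3.65 units.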
